A study of Mus musculus with 4 samples.

Results

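The genes of purine and pyrimidine nucleotide metabolism were compared between 2 mouse erythroid culture systems in differentiation, a leukemic line and progenitors grown from embryonic stem cells. The set held 49 genes, chosen as enzymes of phosphoribosyl pyrophosphate (PRPP) synthesis and of the de novo, salvage, conversion and breakdown branches. A gene counted as measured when the array had a feature annotated to it and to no other gene, and 44 of the 49 were, through 45 features. They were 44 of 19938 genes measured in this way. Prps1l3 and Pnp2 had only a feature shared with another gene, and Impdh2, Gmpr and Gmpr2 were not analysed here.

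Each group had 2 cultures, lettered A and B, with 1 array per culture. MEL cells are a mouse erythroleukemia line. They were kept in DMEM with fetal serum, glutamine and puromycin, and estradiol was added for 48 hours to induce them. The ES-EP line consists of erythroid progenitors derived from embryonic stem cells, expanded in StemPro34 medium with erythropoietin, an insulin-like growth factor, dexamethasone and stem cell factor. For differentiation they spent 24 hours with more erythropoietin, insulin and the glucocorticoid antagonist mifepristone. Cell line, medium, inducer and hours differed together between the groups, so the comparison is of 2 culture systems. Undifferentiated cultures were not analysed here. Nothing in the labels says when the duplicates were grown, so the p-values cover just the variation seen between these duplicates. In bulk RNA, fewer cells of a type and less RNA per cell cannot be told apart.

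Nucleotides are built in 2 ways. The de novo routes assemble the purine ring step by step on PRPP, giving inosine monophosphate (IMP), from which AMP and GMP are made, and assemble the pyrimidine ring as orotate before joining it to PRPP, giving UMP and then CTP. Salvage enzymes instead recapture bases and nucleosides. Proliferating erythroblasts draw on nucleotides for DNA, while maturing red cells lose their RNA and must dispose of its pyrimidine nucleotides, and red cells without a nucleus depend on salvage to keep their ATP.

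Values are log2 values of the robust multi-array average (RMA), and all differences are MEL minus ES-EP on that scale. A gene was called higher or lower at an adjusted p under 0.05 in limma, fitted across 28944 features. Duplicates agreed closely, with r = 0.997 for MEL and 0.998 for ES-EP across features, against 0.948 to 0.949 between groups. Array medians were 5.78 to 5.91. The median of the 44 genes in an array was 9.38 and 9.53 in MEL A and B and 9.71 and 9.76 in ES-EP A and B. All 12 measured markers of the erythroid list had group means of at least 7.04 in MEL and 9.59 in ES-EP, and 2 were higher and 10 lower in MEL, with Slc4a1, the anion exchanger of the red cell membrane, at a mean of 7.04 against 12.48. Of 5 megakaryocyte markers 3 were higher and 1 lower, the largest rise being that of Cd9 (9.3 against 4.54) and the fall that of Itgb3 (5.57 against 7.94). The 7 myeloid markers had means of at most 5.02 and 5.63, with 0 higher and 4 lower. Of 6 mast cell markers 5 were lower, among them Ms4a2 (3.93 against 7.45). Lymphoid markers (1 higher and 3 lower of 5), stromal and endothelial markers (1 and 3 of 6) and pluripotency markers (2 and 3 of 5) had means of at most 6.7 in MEL and 6.98 in ES-EP. The part of these cell type differences in the results below was not tested.

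Of the 44 genes, 13 were higher in MEL, 22 were lower and 9 did not pass. The called share was 79.5% of these genes, against 58.6% of all genes. By direction it was 29.5% higher and 50% lower, against 21.8% and 36.9%. At least 2-fold, 7 were higher and 6 lower (15.9% and 13.6%), against 7.38% and 4.93% of all genes. The set is bright, and among genes above the median signal the called shares were 84.2% of 38 members and 71.8% of all. The median absolute difference was 0.72, against 0.33 over all genes. The median signed difference was -0.30, against -0.14 over all genes, and other scalings moved both: to -0.16 and -0.02 with quantile normalization, to -0.24 and -0.07 with arrays centred on their medians, and to -0.11 and 0.02 under cyclic loess. Higher genes were 37.1% of all called genes as deposited, 48.3% once quantile normalized and 54.3% under cyclic loess. For the members the same shares were 37.1%, 43.2% and 41.7%. Tested against a minimum of 1.2-fold, 11 higher and 17 lower members passed, a share of 63.6%, against 31.7% of all genes. Of the called members, Prpsap1, Ppat, Adsl, Ampd2, Cad, Dpyd and Ak1 did not pass that test. The groups' values did not overlap in 43 of the 44 genes, against 80.2% of all genes.

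**Figure D1:**
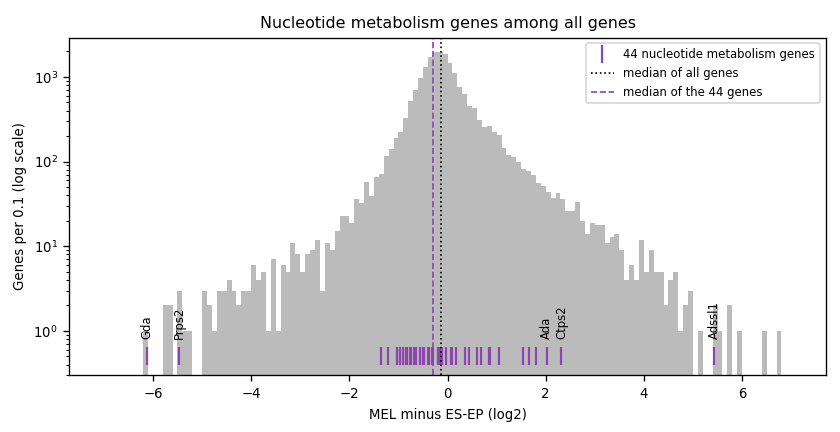
Distribution of the log2 difference MEL minus ES-EP over 19938 genes (grey, log count axis), with the 44 nucleotide metabolism genes as purple ticks and both medians as vertical lines. Gda, Prps2 and Adssl1 lie far out in the tails, at -6.12, -5.47 and 5.43.

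**Figure D2:**
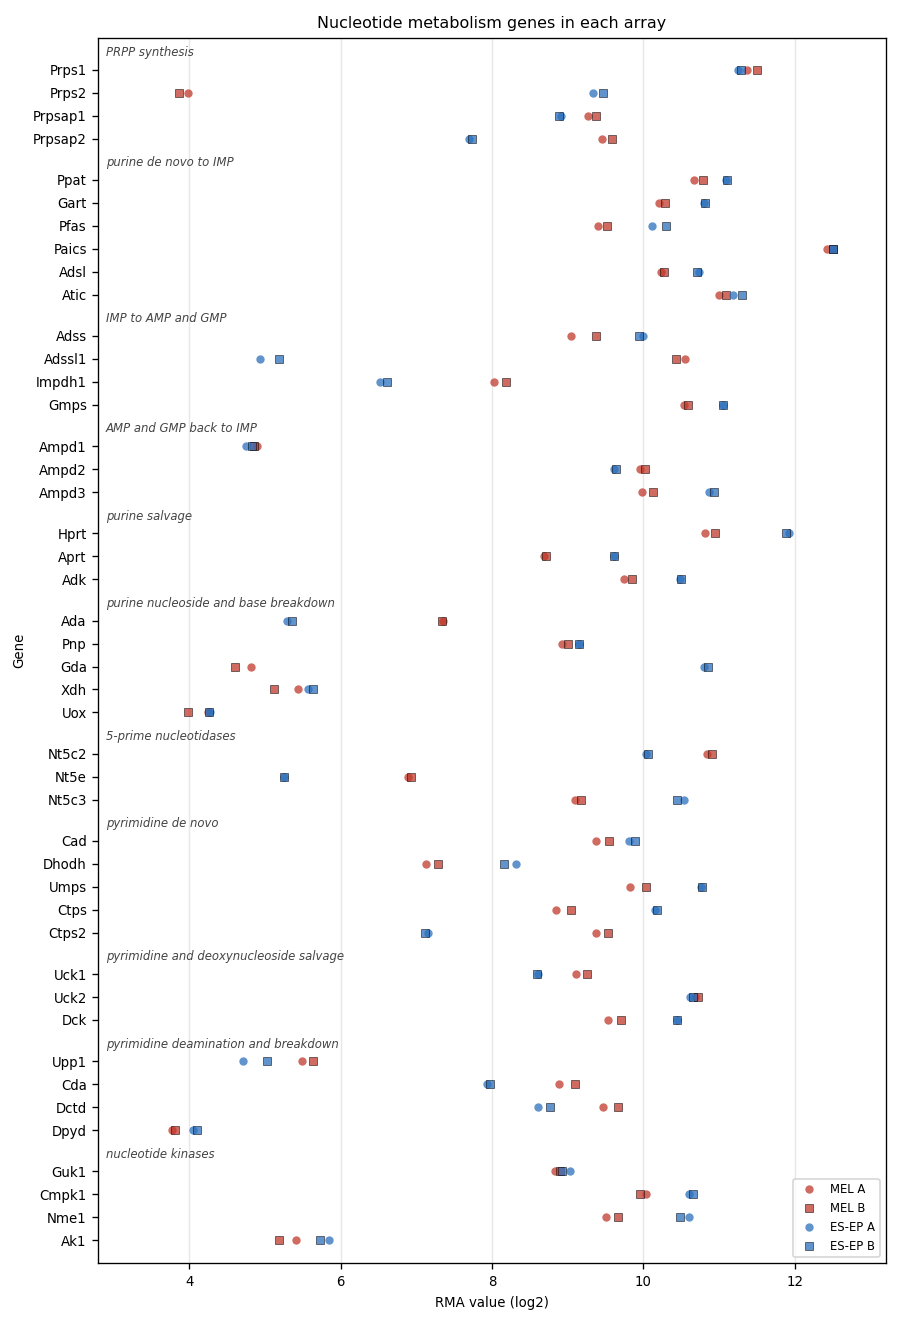
RMA value (log2, horizontal) of each of the 44 genes in the 4 arrays, ordered by branch; red is MEL and blue ES-EP, circles are culture A and squares culture B. Duplicates lie at most 0.32 apart, and only Paics overlaps between the groups.

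**Figure D3:**
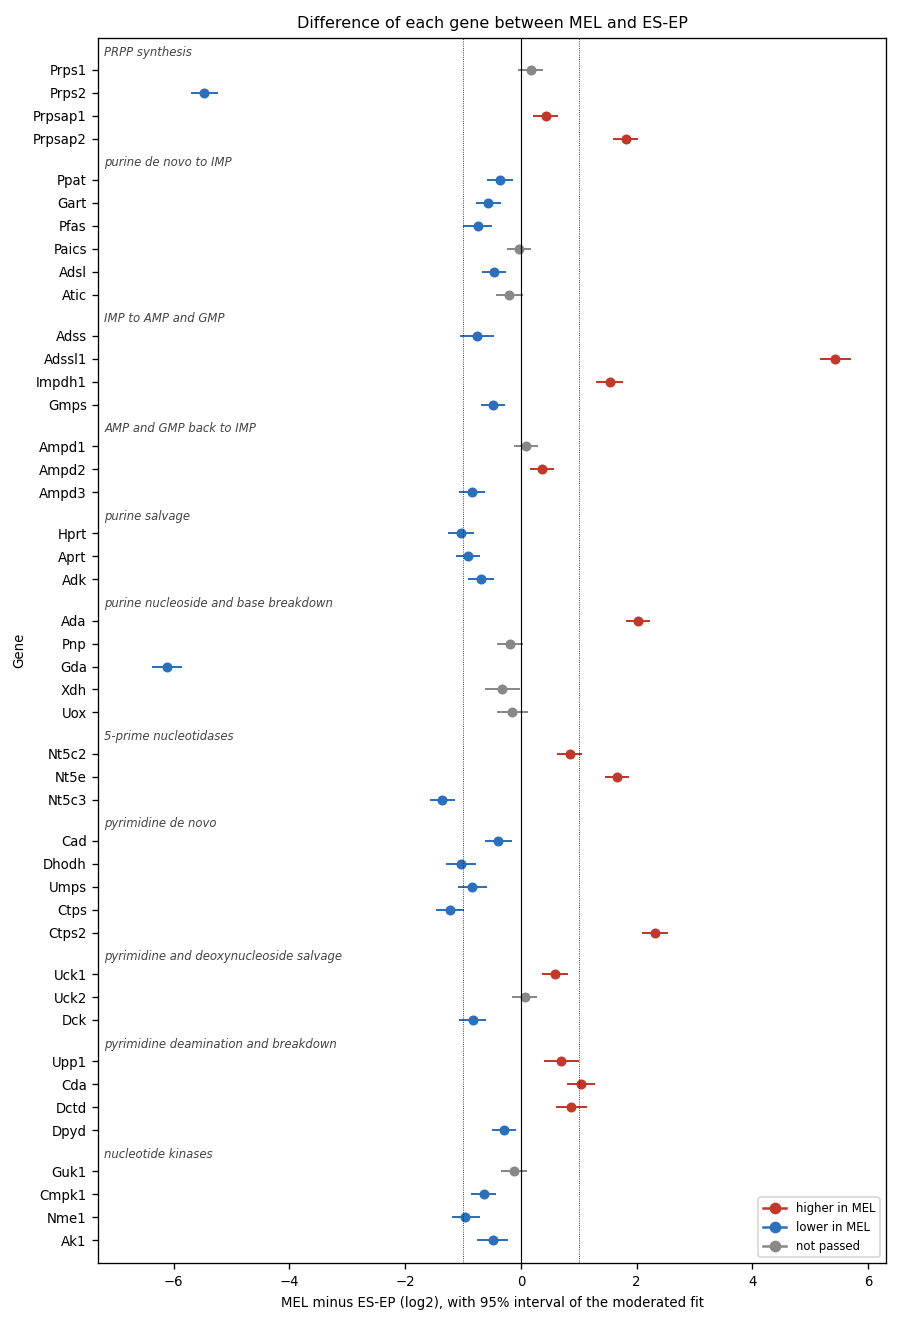
Difference MEL minus ES-EP (log2) of each gene with its 95% interval from the moderated fit, ordered by branch and coloured by call; dotted lines mark 2-fold. All 3 purine salvage genes were lower and 4 of 5 pyrimidine de novo genes were lower, with Ctps2 as the exception. Of all genes, 36.9% were lower.

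PRPP is the activated ribose used by both de novo routes and by base salvage. Among the genes of its synthesis, Prps2 was lower in MEL and Prps1 did not pass. Prps2, a catalytic PRPP synthetase encoded on the X chromosome, was at 3.98 and 3.86 in MEL A and B and at 9.33 and 9.46 in ES-EP A and B. The MEL values lay below the lower quartile of all values (4.54), so the fold rests on values near the floor of the array. The difference was -5.47 ± 0.09 (SE, n = 2 per group), 44.4-fold lower in MEL (adjusted p = 7.2e-08). Prps1, the ubiquitous isozyme, was at 11.37 and 11.50 in MEL and at 11.25 and 11.29 in ES-EP, and its difference of 0.17 did not pass (95% interval -0.04 to 0.37, adjusted p = 0.142). It passed as higher after quantile normalization (0.31, adjusted p = 0.0149), after cyclic loess (0.28, adjusted p = 0.0219) and with an intensity trend (adjusted p = 0.0162). Both regulatory subunits that bind the synthetases were higher in MEL. Prpsap2 was at 9.45 and 9.58 in MEL and 7.69 and 7.73 in ES-EP, 3.50-fold higher (1.81 ± 0.09, SE, n = 2 per group, adjusted p = 4.07e-06). Prpsap1 was 1.35-fold higher, at 9.27 and 9.37 against 8.91 and 8.88.

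The 6 enzymes that build IMP from PRPP were lower in MEL or did not pass, and none differed by 2-fold. Calls were made for 4 as lower and 0 as higher, where 36.9% of all genes were lower and 21.8% higher. The branch median was -0.42. The same counts held under 3 other scalings (quantile normalization, centring, cyclic loess), where 24.5% to 28.8% of all genes were lower. The limma fit after centring had a different error: Prpsap2 had an adjusted p of 2.14e-45 there, against 4.07e-06 as deposited. Calls kept or lost after centring, here and below, therefore do not reflect scaling alone. Pfas, which makes the formylglycinamidine intermediate, was lowest relative to ES-EP, at 9.40 and 9.52 in MEL and 10.12 and 10.30 in ES-EP (-0.75 ± 0.10, SE, n = 2 per group, adjusted p = 0.000597). Gart, a trifunctional enzyme of early ring assembly, was at 10.20 and 10.28 against 10.80 and 10.81, 1.48-fold lower. Adsl, which acts both in this route and in AMP synthesis, was at 10.23 and 10.27 against 10.73 and 10.71, 1.39-fold lower. Ppat, the amidotransferase of the committed first step, was at 10.67 and 10.79 against 11.09 and 11.10 (-0.37, adjusted p = 0.00919), and it no longer passed when either ES-EP culture was dropped (adjusted p = 0.0536 without A and 0.0542 without B). Paics, a bifunctional enzyme of mid-pathway, was bright and overlapping, at 12.42 and 12.51 in MEL and 12.51 and 12.50 in ES-EP. Its difference of -0.04 had a 95% interval of -0.23 to 0.16 and turned positive under each of the 3 other scalings and without MEL culture A. Atic, the bifunctional enzyme of the last steps, differed by -0.20 (95% interval -0.41 to 0.01, adjusted p = 0.0977) and passed with an intensity trend (adjusted p = 0.00916).

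At the branch point from IMP, 2 enzymes were higher and 2 lower in MEL, where 21.8% of all genes were higher and 36.9% lower. Adssl1, the adenylosuccinate synthase known from muscle, was at 10.55 and 10.43 in MEL and at 4.94 and 5.18 in ES-EP. It was 43.2-fold higher in MEL (5.43 ± 0.11, SE, n = 2 per group, adjusted p = 9.59e-08). Adss, the synthase of most other tissues, was at 9.05 and 9.37 in MEL and 9.99 and 9.94 in ES-EP, 1.69-fold lower (-0.76 ± 0.12, SE, n = 2 per group, adjusted p = 0.00125). Both enzymes join aspartate to IMP on the way to AMP. On the way to GMP, Impdh1, an IMP dehydrogenase, was at 8.03 and 8.18 in MEL and 6.52 and 6.61 in ES-EP, 2.9-fold higher (adjusted p = 1.19e-05). Gmps, which aminates the product to GMP, was at 10.53 and 10.59 against 11.05 in both ES-EP cultures, 1.40-fold lower (adjusted p = 0.0019). The other dehydrogenase, Impdh2, was not analysed here.

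AMP deaminases, which return AMP to IMP, went in different directions. Ampd3, the isoform of red cells, was at 9.98 and 10.13 in MEL and 10.87 and 10.93 in ES-EP, 1.79-fold lower (adjusted p = 0.000214). Ampd2, the isoform of liver and many other tissues, was at 9.96 and 10.02 against 9.61 and 9.64, 1.29-fold higher (0.36, adjusted p = 0.00738), and it did not pass with ES-EP culture A dropped (0.35, adjusted p = 0.0605). Ampd1, the muscle isoform, was dim, at 4.89 and 4.86 in MEL and 4.75 and 4.83 in ES-EP. Its difference of 0.09 did not pass as deposited (adjusted p = 0.386) and passed as higher after quantile normalization (0.31, adjusted p = 0.0141) and cyclic loess (0.31, adjusted p = 0.0178).

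All 3 purine salvage enzymes were lower in MEL, and the same count held under the 3 other scalings. The share of all genes lower was 36.9% as deposited and 24.5% to 28.8% under those scalings. Hprt, which joins hypoxanthine or guanine to PRPP, was at 10.82 and 10.94 in MEL and 11.93 and 11.89 in ES-EP, 2.04-fold lower (-1.03 ± 0.09, SE, n = 2 per group, adjusted p = 6.13e-05). Aprt, which does the same for adenine, was at 8.69 and 8.71 in MEL and 9.61 in both ES-EP cultures, 1.88-fold lower (adjusted p = 7.65e-05). Adk, which phosphorylates adenosine, was at 9.74 and 9.85 against 10.48 and 10.50, 1.62-fold lower (adjusted p = 0.000435). The MEL values of each lay below both ES-EP values, and the branch median was -0.91.

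Purine breakdown held large differences in both directions. Gda, the guanine deaminase that turns guanine into xanthine, was at 4.82 and 4.60 in MEL and at 10.80 and 10.85 in ES-EP. It was 69.3-fold lower in MEL (-6.12 ± 0.10, SE, n = 2 per group, adjusted p = 7.05e-08), with MEL values close to the lower quartile, so its size, like those of Prps2 and Adssl1, rests on a group that was not told from background and the order of the 3 is not set. Ada, the adenosine deaminase, was at 7.35 and 7.34 in MEL and at 5.29 and 5.36 in ES-EP, 4.06-fold higher in MEL (2.02 ± 0.08, SE, n = 2 per group, adjusted p = 1.68e-06). Its ES-EP values lay below the array medians (5.78 to 5.91), so the size of its fold may depend on the floor. Pnp, the phosphorylase that splits inosine and guanosine, was at 8.92 and 9.01 against 9.15 in both ES-EP cultures. Its difference of -0.19 did not pass (95% interval -0.39 to 0.01, adjusted p = 0.0886) and passed with an intensity trend (adjusted p = 0.0477). Xdh, which makes uric acid, and Uox, which oxidises it, were dim. Xdh was at 5.44 and 5.12 in MEL and 5.57 and 5.63 in ES-EP (-0.32, adjusted p = 0.0519). It passed without MEL culture A (-0.48, adjusted p = 0.0083), with features of 1 gene symbol only (adjusted p = 0.0405) and with the mean of each gene's features (adjusted p = 0.0497). Uox lay below the lower quartile in both groups, at 4.25 and 3.98 in MEL and 4.27 and 4.26 in ES-EP (-0.15, adjusted p = 0.28). Without MEL culture A it passed (-0.28, adjusted p = 0.0349), and its sign turned after quantile normalization (0.07) and cyclic loess (0.05).

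Among the 5' nucleotidases, which strip the phosphate from nucleotides, 2 were higher in MEL and 1 was lower, also under the 3 other scalings. Shares over all genes as deposited were 21.8% higher and 36.9% lower. Nt5c3, the pyrimidine nucleotidase whose loss causes hemolytic anemia in humans, was at 9.09 and 9.18 in MEL and at 10.54 and 10.45 in ES-EP. It was 2.56-fold lower in MEL (-1.36 ± 0.09, SE, n = 2 per group, adjusted p = 1.56e-05). Nt5c2, the cytosolic nucleotidase that prefers IMP and GMP, was at 10.84 and 10.91 against 10.03 and 10.06, 1.78-fold higher (adjusted p = 0.000142). Nt5e, or CD73, which makes adenosine outside the cell, was at 6.89 and 6.93 in MEL and 5.25 in both ES-EP cultures, 3.16-fold higher (1.66 ± 0.08, SE, n = 2 per group, adjusted p = 4.01e-06). Its ES-EP values lay below the array medians, so the size of its fold may depend on the floor.

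The pyrimidine de novo route was lower in MEL at 4 of its 5 genes, with the same counts under the 3 other scalings. Of all genes, 36.9% were lower as deposited and 24.5% to 28.8% under those scalings. Cad, whose 3 activities start the route, was at 9.38 and 9.54 in MEL and 9.81 and 9.89 in ES-EP (-0.39, adjusted p = 0.0101), and it did not pass with ES-EP culture B dropped (-0.35, adjusted p = 0.0694). Dhodh, the mitochondrial dehydrogenase that makes orotate, was at 7.13 and 7.28 against 8.32 and 8.16, 2.04-fold lower (-1.03 ± 0.10, SE, n = 2 per group, adjusted p = 0.000122). Umps, which turns orotate into UMP, was at 9.82 and 10.03 against 10.76 and 10.77, 1.79-fold lower (adjusted p = 0.000331). The last step from UTP to CTP has 2 isozymes, and these went opposite ways. Ctps was at 8.84 and 9.04 in MEL and 10.15 and 10.18 in ES-EP, 2.33-fold lower (adjusted p = 4.33e-05). Ctps2, encoded on the X chromosome, was at 9.38 and 9.53 in MEL and 7.15 and 7.11 in ES-EP, 5.00-fold higher (2.32 ± 0.09, SE, n = 2 per group, adjusted p = 1.38e-06).

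Enzymes that deaminate or cleave pyrimidine nucleosides were higher in MEL, and the kinases of salvage were mixed. Cda, which deaminates cytidine and deoxycytidine, was at 8.88 and 9.09 in MEL and 7.93 and 7.97 in ES-EP, 2.05-fold higher (adjusted p = 0.000112). Dctd, which deaminates dCMP and so feeds dTTP synthesis, was at 9.46 and 9.66 against 8.61 and 8.76, 1.83-fold higher (adjusted p = 0.000368). Upp1, the uridine phosphorylase, was dim and 1.62-fold higher, at 5.49 and 5.63 against 4.71 and 5.03 (adjusted p = 0.00241). Its values in both groups lay below the array medians, so the size of its fold may depend on the floor. Dpyd, which reduces uracil and thymine, was dim, with means of 3.79 in MEL and 4.07 in ES-EP, both below the lower quartile. Its call as lower (-0.29, adjusted p = 0.0196) was lost under each of the 3 other scalings (adjusted p = 0.147 to 0.298) and when either ES-EP culture was dropped (0.091 without A and 0.136 without B). Dck, the main deoxycytidine kinase, was at 9.53 and 9.70 in MEL and 10.45 in both ES-EP cultures, 1.78-fold lower (adjusted p = 0.000242). Uck1, a uridine-cytidine kinase, was at 9.11 and 9.26 against 8.61 and 8.59, 1.5-fold higher (adjusted p = 0.00117). The second uridine-cytidine kinase, Uck2, had 2 features that disagreed. The brighter differed by 0.07 and did not pass (95% interval -0.13 to 0.26, adjusted p = 0.523), while the dimmer was at 9.23 and 9.26 in MEL and 8.47 and 8.58 in ES-EP (0.72, adjusted p = 0.000347). The brighter feature passed after quantile normalization (0.22, adjusted p = 0.034), and so did the mean of both (0.39, adjusted p = 0.0055).

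The kinases that raise monophosphates to diphosphates and triphosphates were lower in MEL for 3 of 4 genes, also under the 3 other scalings. As deposited, 36.9% of all genes were lower, and under those scalings 24.5% to 28.8%. Nme1, which makes triphosphates, was at 9.50 and 9.67 in MEL and 10.60 and 10.48 in ES-EP, 1.94-fold lower (adjusted p = 0.000161). Cmpk1, the UMP and CMP kinase, was at 10.03 and 9.95 against 10.60 and 10.66, 1.56-fold lower (adjusted p = 0.000633). Ak1, the adenylate kinase of muscle and red cells, was dim, at 5.41 and 5.19 against 5.85 and 5.73 (-0.49, adjusted p = 0.00595). Guk1, the guanylate kinase, differed by -0.12 and did not pass (95% interval -0.32 to 0.08, adjusted p = 0.266).

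Several of the genes encode related enzymes or subunits, which do not always share a step. These were often unequal in their difference between the systems. The log2 ratio of the 2 features of a pair was taken in each array. This cancels a shift common to all features of an array, but not scaling that depends on signal. The ratio of Adssl1 to Adss was higher in MEL by 6.19 (SD of the duplicates 0.31 in MEL and 0.21 in ES-EP, n = 2 each) and that of Ctps2 to Ctps by 3.54 (SD 0.031 and 0.05). The ratio of Prpsap2 to Prpsap1 was higher by 1.38. The ratio of Prps2 to Prps1 fell by 5.64 in MEL (SD 0.18 and 0.06), that of Nt5c3 to Nt5c2 fell by 2.19 and that of Ampd3 to Ampd2 fell by 1.21. The ratio of Uck2 to Uck1 had no settled direction: it fell by 0.52 on the brighter Uck2 feature and was higher in MEL by 0.13 on the other (SD 0.086 and 0.087). The groups did not overlap in these 7 ratios, but neither did they in 80.2% of all single genes. An exact two-sided permutation test of 2 against 2 arrays cannot give a p under 0.333, so no p is given for them. Levels of the 2 members of a pair were not compared, since features differ in their response.

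**Figure D4:**
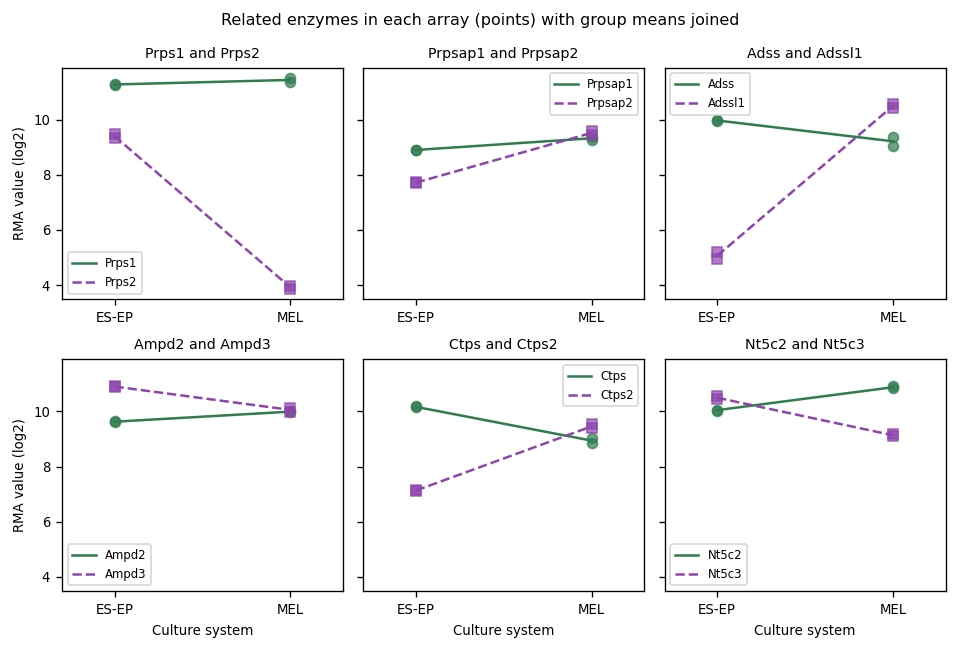
RMA value (log2) of 6 pairs of related enzymes or subunits in ES-EP and MEL. Points are the arrays (circles and squares are the 2 genes of a pair), and lines join group means. Prps2 is at 3.86 to 3.98 in MEL while Prps1 lies between 11.25 and 11.50 in all 4 arrays, and Ctps2 and Adssl1 run opposite to Ctps and Adss.

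The 250 bases before the RefSeq start (GRCm38.p6) are shown for the 3 genes with the largest differences and for the partners of a pair, to set the promoters of unequal isozymes side by side. Capitals mark any match, on either strand and overlapping matches included, to 5 motifs. The first is the E-box known to bind MYC, with the letters CACGTG. The next is a GATA site, here taken as AGATAA on either strand. The Sp1 box was searched as GGGCGG on either strand. The remaining motifs were the letters CCAAT on either strand, and the TATA box as TATAAA on either strand. Each sequence is given from its 5′ end on the strand of the gene.
Prps2, chrX:167382750-167382999, minus strand: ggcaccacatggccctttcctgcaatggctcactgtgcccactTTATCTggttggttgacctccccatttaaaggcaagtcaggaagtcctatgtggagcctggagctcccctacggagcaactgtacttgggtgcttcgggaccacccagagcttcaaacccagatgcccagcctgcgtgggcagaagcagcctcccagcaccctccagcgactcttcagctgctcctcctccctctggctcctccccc
Prps1, chrX:140456353-140456602, plus strand: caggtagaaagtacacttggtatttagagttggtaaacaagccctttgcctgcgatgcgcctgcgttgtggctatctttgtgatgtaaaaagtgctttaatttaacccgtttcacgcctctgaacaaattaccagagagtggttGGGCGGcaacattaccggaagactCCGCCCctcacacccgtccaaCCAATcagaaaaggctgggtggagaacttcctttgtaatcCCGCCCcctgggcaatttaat
Adssl1, chr12:112619797-112620046, plus strand: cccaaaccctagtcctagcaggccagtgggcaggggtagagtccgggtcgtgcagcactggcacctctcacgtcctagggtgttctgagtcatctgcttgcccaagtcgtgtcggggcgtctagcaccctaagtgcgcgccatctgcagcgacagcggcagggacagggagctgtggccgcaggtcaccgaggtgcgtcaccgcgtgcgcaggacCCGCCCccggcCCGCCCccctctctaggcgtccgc
Adss, chr1:177796510-177796759, minus strand: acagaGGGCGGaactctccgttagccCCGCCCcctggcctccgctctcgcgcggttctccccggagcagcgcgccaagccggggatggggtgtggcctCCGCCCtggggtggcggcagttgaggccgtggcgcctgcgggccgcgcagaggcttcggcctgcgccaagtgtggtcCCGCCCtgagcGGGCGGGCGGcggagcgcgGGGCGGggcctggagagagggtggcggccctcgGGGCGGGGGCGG
Gda, chr19:21472662-21472911, minus strand: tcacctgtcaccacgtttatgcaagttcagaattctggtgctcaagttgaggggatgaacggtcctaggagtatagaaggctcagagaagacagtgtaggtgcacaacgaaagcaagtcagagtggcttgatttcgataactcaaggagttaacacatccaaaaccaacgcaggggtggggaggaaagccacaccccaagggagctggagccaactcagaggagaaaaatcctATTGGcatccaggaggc
The Prps2 window, of the isozyme low in MEL, had 1 match, to the GATA letters, starting 207 bases before the start. It held 4 CpG dinucleotides. The Prps1 window had 3 Sp1 boxes and 1 CCAAT, with 10 CpG. The Gda window had 1 CCAAT, 17 bases before the start, and 5 CpG. The Adssl1 window had 2 Sp1 boxes and 21 CpG, and that of Adss 9 Sp1 boxes, some overlapping each other, and 32 CpG. These letters describe the sequence and show neither binding nor its absence.

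A window was found for 40 of the 44 genes, and several genes had more than 1 start, giving 65 windows. Sp1 letters occurred in 61.5% of them, against 32.7% of all 32851 windows. A CpG ratio of at least 0.6 (observed over that from the base content) was found in 53.8%, against 34.3%. The E-box letters were in 9.23%, against 6.02%, and were found at Atic, Paics, Nme1, Ampd3 and Nt5c2. The GATA letters were in 9.23%, against 9.99%. CCAAT was in 24.6%, against 33.8%, and TATAAA in 6.15%, against 12.4%. All windows include noncoding and tissue-restricted genes, so the comparison describes and is not matched.

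Genes that supply DNA precursors included several of the larger differences around the pathway. Of 11 measured genes of dNTP supply 7 were lower in MEL and 1 higher, with a median of -0.30, where 36.9% of all genes were lower and 21.8% higher. After centring or cyclic loess the counts were 5 lower and 1 higher, and after quantile normalization 6 and 1. Calls after centring also carry the different error of that fit. Rrm2, the subunit of ribonucleotide reductase that is regulated over the cell cycle, was at 10.01 and 10.26 in MEL and 12.30 and 12.33 in ES-EP, 4.53-fold lower (adjusted p = 3.66e-06). Its partner Rrm1 was at 11.74 and 11.84 against 12.60 and 12.59, 1.75-fold lower (adjusted p = 0.000185). Tk1, the thymidine kinase of S phase, was at 9.02 in both MEL and 10.75 in both ES-EP cultures on its brighter feature, 3.32-fold lower, and 3.91-fold lower on the other. Samhd1, which degrades dNTPs, was 1.43-fold lower (adjusted p = 0.00204) and Dctpp1, a dCTP pyrophosphatase, 1.34-fold lower (adjusted p = 0.00463, and 0.147 against a minimum of 1.2-fold). Dguok, the mitochondrial deoxyguanosine kinase, was the higher gene, at 7.90 and 7.93 against 7.38 and 7.32 (adjusted p = 0.000986). Tyms, the thymidylate synthase, differed by only -0.22 (adjusted p = 0.0467), and it did not pass when any of the 4 cultures was dropped (adjusted p = 0.0654 to 0.23), with the replicate block (0.0552), with control features kept (0.068) and under the 3 other scalings (0.227 to 0.408). Rrm2b, the reductase subunit known from resting cells (-0.30, adjusted p = 0.0371), lost its call after centring (0.115), after cyclic loess (0.072), with control features kept (0.0763) and without MEL culture A or B or ES-EP culture A (0.131, 0.0507 and 0.268). Dut (-0.21, adjusted p = 0.0559), Dtymk (-0.17, adjusted p = 0.112) and Tk2 (0.15, adjusted p = 0.162) did not pass. Dut passed with an intensity trend or with dim features left out (adjusted p = 0.0197 to 0.0496), and Dtymk with an intensity trend (adjusted p = 0.0309).

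Genes that supply the pathway from outside were lower in MEL or did not pass. Of 8 nucleoside and base transporters 5 were lower and 0 higher as deposited, and 4 and 1 after quantile normalization or cyclic loess. Over all genes as deposited, 36.9% were lower and 21.8% higher. Slc28a2, a concentrative transporter of purine nucleosides, was at 5.15 and 5.4 in MEL and 7.03 and 7.16 in ES-EP, 3.54-fold lower (adjusted p = 1.15e-05). Its MEL values lay below the array medians, so the size of its fold may depend on the floor. Of 5 genes of one-carbon supply, which provide the formyl and methylene groups for purines and dTMP, 4 were lower and 0 higher as deposited, and 3 were lower after centring. Mthfd1, the trifunctional folate enzyme, was at 10.04 and 10.21 against 11.10 and 11.14, 1.99-fold lower (adjusted p = 9.72e-05).

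**Figure D5:**
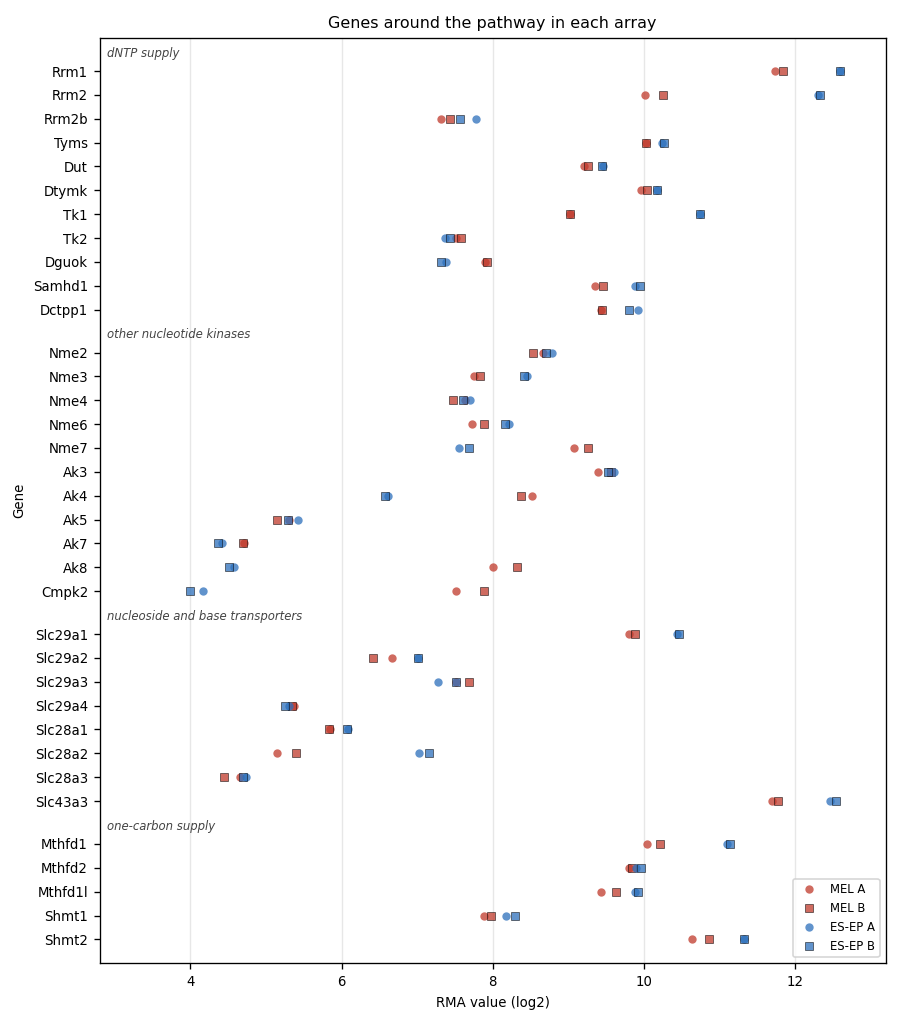
RMA value (log2, horizontal) in the 4 arrays of genes around the pathway: dNTP supply, other nucleotide kinases, transporters and one-carbon supply; red is MEL and blue ES-EP, circles are culture A and squares culture B. Rrm2 and Tk1 lie lower in MEL, and Ak8, Cmpk2 and Ak4 lie higher.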

How the data were processed

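RNA of 4 cultures was measured on the Affymetrix Mouse Gene 1.0 ST array, with 1 column of values per culture. The authors deposited log2 values, which the labels describe as RMA values from GeneSpring GX. That the scale is log2 was taken from the range of the values. The software version, the filters and which arrays were normalized as 1 set (not given in the sources used here) may also affect the values. The method hides changes in total RNA and has a floor for dim features, with no detection calls. The number of arrays limits the precision.

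Of 35557 features 6613 control features, set by the ID range the array's design uses for controls, were left out and 28944 were tested, of which 21789 had 1 gene symbol, 1621 several and 5534 none. Names came from a platform annotation, updated by Entrez identifier with RefSeq genes of GRCm38.p6 (21698 matched), and the brightest feature stood for a gene. The fit used limma 3.58.1 in R 4.3.3 (lmFit and eBayes, Benjamini-Hochberg over 28944 features, 2 residual and 5.15 prior degrees of freedom). The procedure was tried on simulated data. Of 50 features changed 1.5-fold 40% were recovered, and of 50 changed 2-fold 94%, with 9 unchanged features called. Few of the 28944 features were changed there, while 58.6% of genes were called in these data. The adjusted p depends on that share, so the recovered percentages are not the sensitivity of this comparison.

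The members, branches and lists were chosen with earlier results of these data known, and the large differences of Gda, Prps2 and Adssl1 were known. Every measured member may be named, as may all dNTP genes and the largest passing rise and fall of each other list. Promoter sequences are RefSeq's. Alternatives covered scaling, the eBayes prior, filters, the block, treat and each culture left out.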

Additional observations from a re-analysis of the deposited data

How the results depend on the processing

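The counts of 13 higher and 22 lower members stayed within 1.5 times of these values under every alternative run, and the 35 called members kept their sign in all of them. With the replicate block the counts were again 13 and 22, and no member's call changed. The letters A and B were not shown to pair the cultures (same-letter deviations correlated with r = 0.11 across features, from 2 pairs). The median difference of the members moved from -0.30 to -0.16 after quantile normalization, -0.24 after centring, -0.11 after cyclic loess, -0.38 without features under the median and -0.34 without features under the lower quartile, and ran from -0.33 to -0.28 with each culture left out. Over all genes, 4339 were higher and 7350 lower as deposited. Cyclic loess gave 4878 lower, and treat against 1.2-fold 2888 higher and 3428 lower. The filter at the median left 10646 genes, of which 3951 were lower. That was 37.1%, against 36.9% as deposited, so the share lower hardly moved. The sign of Paics turned after quantile normalization (0.04), centring (0.03) and cyclic loess (0.07), and without MEL culture A (0.01). With each culture left out in turn, its difference ran from -0.08 to 0.01. Uox turned after quantile normalization (0.07) and cyclic loess (0.05). The cause of these changes was not tested. Without detection calls, Prps2 and Gda in MEL and Adssl1, Ak8 and Cmpk2 in ES-EP were not told from background, so their folds depend on the floor. Ada and Nt5e in ES-EP, Slc28a2 in MEL, and Upp1 and Nt5c1a in both groups lay below every array median, so their folds may depend on it too.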

Other observations

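Among nucleotide kinases outside the main set, 5 of 11 measured were higher in MEL and 2 lower, and the counts were the same under the 3 other scalings. Over all genes as deposited, 21.8% were higher and 36.9% lower. Ak8, an adenylate kinase, was at 8.01 and 8.32 in MEL and 4.57 and 4.51 in ES-EP, 12.3-fold higher (limma, adjusted p = 5.67e-07). Its ES-EP mean of 4.54 was at the lower quartile of all values, and that of Cmpk2 (4.08) below it, so neither was told from background there and the size of the fold rests on the floor of the array. Nme3, a nucleoside diphosphate kinase, was 1.56-fold lower (adjusted p = 0.000573). Cmpk2, a mitochondrial UMP and CMP kinase known as interferon-inducible, and Ak4, a mitochondrial adenylate kinase, were named after their values were seen. Cmpk2 was at 7.51 and 7.89 in MEL and 4.16 and 4 in ES-EP. Ak4 had 2 features, 3.6-fold and 6.79-fold higher in MEL. Among 3 further salvage genes Uprt, a uracil phosphoribosyltransferase homologue, was 2.82-fold and 5.92-fold higher on its 2 features. On the feature with the larger fold, ES-EP values were 5.84 and 5.65 for Uprt and 5.88 and 5.97 for Ak4. These lay close to the array medians, so the size of those folds may depend on the floor. Mtap, which frees adenine from methylthioadenosine, was 1.40-fold lower (adjusted p = 0.00429, and 0.0816 against a minimum of 1.2-fold), and Uckl1 did not pass. Among 13 further nucleotidases and breakdown genes 5 were higher and 4 lower as deposited, and 5 and 1 after quantile normalization or cyclic loess. These counts were not tested against the shares over all genes. Entpd6 was 1.89-fold higher and Nt5c1a, dim in both groups, 1.48-fold lower.

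The nearest measured genes on the chromosome, 2 on each side in RefSeq order, were looked up for the 3 members with the largest differences and for Ctps2, after these values were seen. Beside Adssl1 on chromosome 12, Inf2 was higher in MEL by 2.83 on the log2 scale (limma, adjusted p = 9.34e-07), Akt1 by 1.34 (adjusted p = 1.29e-05) and Siva1 by 0.39 (adjusted p = 0.00706), while Tmem179 did not pass (adjusted p = 0.897). Beside Ctps2 on the X chromosome, Txlng and Syap1, before it in coordinate order, were higher by 0.83 and 0.80 (adjusted p = 0.000211 and 0.000175), and S100g and Grpr, after it, differed by -0.34 and -0.61 (adjusted p = 0.00999 and 0.00134). Beside Prps2, Tlr7, Tlr8 and Frmpd4 had means of 3.46 to 4.12 in both groups and did not pass, and Msl3 was higher in MEL by 1.18 (adjusted p = 2.09e-05). Beside Gda on chromosome 19, Zfand5 differed by -1.03 (adjusted p = 7.32e-05), Abhd17b higher by 1.40 (adjusted p = 2.27e-05), 1110059E24Rik higher by 0.43 (adjusted p = 0.00997), and Tmc1 did not pass (adjusted p = 0.848).

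MEL culture B was above culture A in 35 of the 44 members and ES-EP culture B above A in 29. The share over all genes is not given here. The upper quartile of all features was also higher in MEL B (8.33) than in MEL A (8.23), while in ES-EP B and A it was 8.26 and 8.25. Without the share over all genes, neither count is read as a result about the members. The median gap between duplicates was 0.122 in MEL and 0.0432 in ES-EP.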
